A study of Mus musculus with 32 samples.

Results

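The genes described here are 39 genes of motile cilia, of the 55357 genes in a table of read counts from mouse brain arteries. They were given as a list of symbols, and each was found by the Ensembl identifier that carries its symbol, so that all 39 were measured. One of them, Drc7, was put on the list because it was higher in control arteries at 12 than at 3 months of age. That contrast therefore only describes the members: no p-value is given for any of them there, and the counts of calls in it support nothing.

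RNA of brain arteries from 32 mice was sequenced, with 1 library per mouse and 8 mice per group. Mice aged 3 months were Notch3+/+ or Notch3-/-, the latter lacking a functional gene for the Notch3 receptor of mural cells. Mice aged 12 months were TgNotch3R169C, which carry a rat Notch3 transgene with a cysteine-altering CADASIL mutation on top of the endogenous mouse gene, or their non-Tg littermates. None of the mice was treated, all lines were on a C57BL/6 background, and each mutant line was compared with controls of its own age. Age, line and mutation therefore change together between the 2 mutant groups. Total counts ranged from 20289487 to 54481934 per library. Notch3, the targeted gene, was lower in Notch3-/- than in Notch3+/+ arteries (log2 fold change -2.37, SE 0.09) and higher in TgNotch3R169C than in non-Tg arteries (1.31, SE 0.12), as the labels state.

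Motile cilia are whip-like cell projections built around a cylinder of paired microtubules with a central pair in the middle. Dynein arms on the outer pairs pull on their neighbors to bend the cilium, and radial spokes, the central pair and the nexin links between pairs keep the beat in order. In the brain, ependymal cells that line the ventricles carry tufts of such cilia and move the cerebrospinal fluid, and epithelial cells of the choroid plexus, which secrete that fluid, carry cilia as well. The transcription factor FOXJ1 turns on the genes for motile cilia, and RFX factors act with it by binding a motif called the X-box. Transthyretin (Ttr) is the classic product of choroid plexus epithelium. Cells of the arterial wall are not known for motile cilia, and a bulk library cannot tell fewer ciliated cells from less RNA per ciliated cell.

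The libraries fell into separate sets by Ttr. Levels are given as CPM, the read counts of a gene relative to the library's total, scaled by the TMM method over all 4 groups. In 7 libraries Ttr lay between 7895 and 23151 CPM, and in the other 25 it lay between 14.0 and 329 CPM, with no library between. The 7 Ttr-high libraries were replicates 2, 4, 5 and 6 of the non-Tg mice, replicates 5 and 8 of the TgNotch3R169C mice and replicate 8 of the Notch3-/- mice, and none came from Notch3+/+ mice. The 15 choroid plexus markers other than Ttr, which itself defined the sets, were each higher in all of these 7 than in any of the 25, and none was at 0 throughout. Their summed level without Ttr was 1585 to 4511 CPM in the 7 and 236 to 393 CPM in the 25. In comparison, the summed level of 6 smooth muscle markers was 1009 to 1913 CPM in the 7 and 1291 to 4069 CPM in the 25. One Notch3+/+ library, replicate 5, held pituitary hormone transcripts at a summed 8452 CPM, against at most 773 CPM in any other. The set of 7 was defined from these data and is not a group of the study, so it is described by ranges without a test, and every comparison is given with and without these libraries.

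Promoters of the members were read from RefSeq on build GRCm38.p6, from 250 bases before the start to 50 bases after it. Of the 39 members, 32 had such a sequence. The X-box was searched on both strands as GTNNCC and GGNAAC with any 2 bases between them, where N is any base. It was found in promoters of 4 of these 32 genes (12.5%), Zmynd10, Spag6l, Tekt4 and Ak9, and of 1.49% of all 27025 genes with a promoter. The shorter motif GTTGCC, which lies inside some of the full motifs, was found for 13 of the 32 (40.6%) and for 14.1% of all these genes. The forkhead motif TGTTTAC was found for 2 of the 32, Ak7 and Cfap43, and for 4.05% of all these genes. A match describes the letters and does not show binding. The 4 promoters with the full X-box are printed because RFX3 is itself a member, and that of Drc7 because Drc7 led to the list. Capitals mark matches to the full X-box and to GTTGCC, which on the minus strand read as the reverse complement of the motif.
Zmynd10, chr9:107547054-107547353, plus strand: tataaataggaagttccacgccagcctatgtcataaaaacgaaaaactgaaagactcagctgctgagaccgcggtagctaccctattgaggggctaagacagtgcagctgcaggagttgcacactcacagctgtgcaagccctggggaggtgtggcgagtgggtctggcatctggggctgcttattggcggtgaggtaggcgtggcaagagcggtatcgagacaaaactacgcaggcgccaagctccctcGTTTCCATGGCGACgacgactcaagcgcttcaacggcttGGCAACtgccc
Spag6l, chr16:16829314-16829613, minus strand: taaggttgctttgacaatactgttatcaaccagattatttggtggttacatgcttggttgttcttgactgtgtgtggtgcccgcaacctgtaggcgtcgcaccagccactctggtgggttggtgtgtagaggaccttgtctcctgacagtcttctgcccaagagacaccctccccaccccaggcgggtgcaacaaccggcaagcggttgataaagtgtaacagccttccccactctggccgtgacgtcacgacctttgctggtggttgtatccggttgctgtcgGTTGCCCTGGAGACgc
Tekt4, chr17:25471340-25471639, plus strand: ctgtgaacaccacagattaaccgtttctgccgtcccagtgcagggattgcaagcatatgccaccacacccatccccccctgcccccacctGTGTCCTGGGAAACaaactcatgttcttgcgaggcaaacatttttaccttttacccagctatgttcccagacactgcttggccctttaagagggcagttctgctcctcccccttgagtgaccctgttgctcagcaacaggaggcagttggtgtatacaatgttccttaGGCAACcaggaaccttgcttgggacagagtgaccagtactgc
Ak9, chr10:41303684-41303983, plus strand: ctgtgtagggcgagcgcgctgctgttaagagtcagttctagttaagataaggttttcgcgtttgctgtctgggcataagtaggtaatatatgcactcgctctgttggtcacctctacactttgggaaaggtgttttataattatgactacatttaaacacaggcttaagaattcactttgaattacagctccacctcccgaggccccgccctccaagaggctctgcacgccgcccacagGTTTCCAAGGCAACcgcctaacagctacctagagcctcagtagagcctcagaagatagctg
Drc7, chr8:95054853-95055152, plus strand: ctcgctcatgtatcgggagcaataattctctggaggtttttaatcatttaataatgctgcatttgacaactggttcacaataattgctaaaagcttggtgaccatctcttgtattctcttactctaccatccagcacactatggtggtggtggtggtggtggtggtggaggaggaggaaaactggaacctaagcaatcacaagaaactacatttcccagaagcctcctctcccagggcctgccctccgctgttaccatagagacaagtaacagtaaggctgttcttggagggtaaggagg
The full match of Zmynd10 began at base 251 of its window, at the start of transcription, and that of Ak9 at base 240. In Spag6l it began at base 285 and in Tekt4 at base 91. No match to any of the 3 motifs was found in these 300 bases of Drc7.

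Members differed widely in level. Per 1000 bases of exon, the highest means over the 32 libraries were those of Rsph9 (8.72 CPM), a radial spoke head protein, of Drc7 (5.85 CPM), a subunit of the nexin-dynein regulatory complex, and of Foxj1 (5.72 CPM). The lowest were those of Dnah3 (0.0866 CPM), Spag17 (0.0786 CPM) and Dnah7a (0.0509 CPM), per the same length. The depth behind the lowest members was small: Dnah3 had 1 to 164 reads per library, Dnah12 had 2 to 182 and Dnah7a had 8 to 48. Tmem212, a membrane protein gene expressed in ciliated cells, had no read in replicate 4 of the Notch3+/+ mice and in replicate 3 of the TgNotch3R169C mice, which allows levels of up to 0.0975 and 0.103 CPM there (3 counts, counting error only). Dnah7a is 96.9% identical to Dnah7b over 12230 bases of transcript and nearly as close to Dnah7c, so its counts are uncertain. Exons of Ccdc39, Dnah3, Spag17 and Dnah11 overlap those of protein-coding genes on the opposite strand, and Cfap43 shares 164 exon bases with Itprip on its own strand. The kit kept strand, but the setting used for counting was not given in the sources used here.

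**Figure D1:**
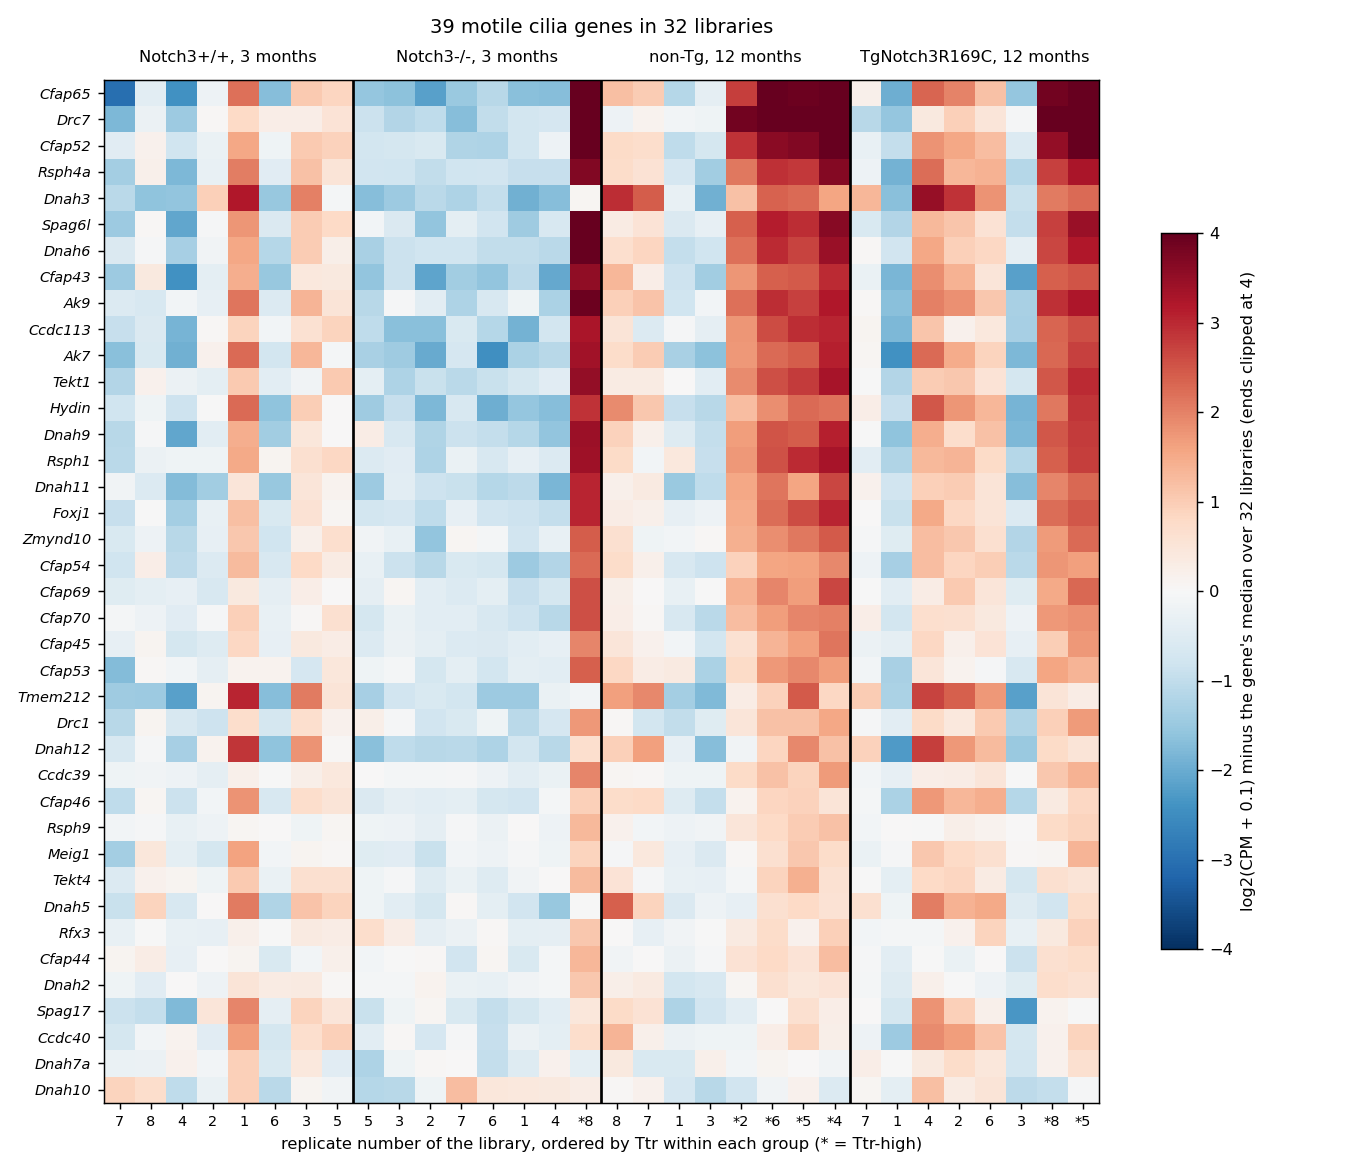
Level of the 39 members (rows) in the 32 libraries (columns), as log2(CPM + 0.1) minus the median of each gene, with colors clipped at 4. Columns are grouped by genotype and age and ordered by Ttr, with a star at the 7 Ttr-high libraries. The upper rows are dark red in the starred columns, while Tmem212, Dnah12 and Dnah5 are highest in other columns.

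Most members were far higher in the Ttr-high libraries, but not all. Of the 39, 17 were higher in each of the 7 libraries than in any of the 25, against 2.41% of the 18555 genes measured well enough in the 4 groups. The median over members of the log2 ratio of medians was 2.28, against -0.003 over all those genes. Within the 8 non-Tg mice alone, where genotype and age were shared, 25 of the 39 were higher in each of the 4 Ttr-high libraries than in any of the other 4, against 7.91% of all genes. Of 74 other measured genes of motile cilia, 29 were higher in each of the 7 than in any of the 25. Of 18 genes for intraflagellar transport and the primary cilium, which most cells build, none were, and their median log2 ratio was 0.22. Within the non-Tg mice alone, however, 9 of these 18 were higher in each of the 4 Ttr-high libraries than in the other 4, so a separation there was not particular to genes of motile cilia. Because Ttr and the members come from the same libraries, these counts are a description.

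Among the regulators, Foxj1 was 20.7 to 61.5 CPM (median 41.4) in the 7 libraries and 2.77 to 21.0 CPM (median 5.86) in the 25. Only 1 of the 25, replicate 4 of the TgNotch3R169C mice, reached above the lowest of the 7. Rfx3, which is also used outside multiciliated cells, was 25.1 to 46.6 CPM in the 7 and 16.98 to 40.9 CPM in the 25, and the sets overlapped. Among nexin link genes, Drc7 was 34.3 to 122 CPM (median 62.3) in the 7 and 0.585 to 4.52 CPM (median 1.98) in the 25, so that the sets were far apart with a ratio of medians of 31.5. Its partner Ccdc113, which helps assemble the link, was 2.78 to 8.02 CPM in the 7 and 0.127 to 1.72 CPM in the 25. Drc1, the scaffold of the same complex, overlapped between the sets (3.54 to 8.49 and 1.03 to 5.21 CPM).

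Dynein heavy chains, the motors of the arms, went different ways. The outer arm chains Dnah9 (9.78 to 33.4 CPM in the 7, 0.635 to 8.46 CPM in the 25) and Dnah11 (11.9 to 33.8 and 1.07 to 8.30 CPM) were higher in every Ttr-high library. Dnah5, the third outer arm chain among the members, was not: it was 0.807 to 2.54 CPM in the 7 and 0.437 to 7.95 CPM in the 25. Of the 6 inner arm chains among the members, only Dnah6 separated the sets, at 20.6 to 76.7 CPM against 1.67 to 13.0 CPM. Dnah10 was no higher in the Ttr-high libraries, at 2.55 to 6.30 CPM (median 4.58) against 2.25 to 12.0 CPM (median 5.32). Dnah7a had a ratio of medians of 1.04, and Dnah12 reached 2.72 CPM in the 7 but 5.31 CPM in the 25.

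The structural members followed the same split. Of the 8 central pair genes, Cfap65, Cfap69, Cfap70 and Spag6l separated the sets, and Cfap65 had the highest ratio of medians of all members (38.4; 24.2 to 83.7 CPM in the 7, 0.344 to 17.8 CPM in the 25). Hydin, whose loss causes hydrocephalus in mice, overlapped between the sets at 3.41 to 10.96 and 0.281 to 8.25 CPM, and Spag17 had a ratio of 1.498. Of the radial spoke genes, Rsph1 and Rsph9 separated the sets, and for Rsph4a 1 of the 25 libraries lay above the lowest of the 7. Rsph9 was 16.7 to 29.4 CPM in the 7 and never below 9.26 CPM in the 25, so most of its level in the 25 did not go with Ttr. Of the genes for proteins inside or along the microtubules, Tekt1 and Cfap52 separated the sets, and Cfap52 had a ratio of 19.0. Ccdc39, of the ruler that sets the spacing of the arms, separated them, and its partner Ccdc40 did not (1.31 to 2.90 and 0.484 to 5.85 CPM). Zmynd10, an assembly factor of dynein arms, Ak9, an adenylate kinase, and Cfap44, of the tether of inner arms, separated the sets too.

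Levels were also set in proportion to Ttr within the 7 libraries. Per 1000 CPM of Ttr, the members with the narrowest ranges were Drc7, Rsph4a and Foxj1. By this quotient Drc7 was 4.33 to 5.91 CPM (median 5.19), Foxj1 was 2.63 to 3.75 CPM and Rsph4a was 0.945 to 1.31 CPM. Cfap65 ranged more widely, from 2.54 to 5.62 CPM (2.21-fold), and the quotient spanned 13.3-fold for Tmem212 and 11.5-fold for Dnah3. Of the 39 members, 29 had their highest level in a Ttr-high library, 24 of them in replicate 8 of the Notch3-/- mice. The other 10 were highest in a library with little Ttr, 6 of them in replicate 1 of the Notch3+/+ mice, namely Dnah7a, Dnah12, Spag17, Cfap46, Meig1 and Tmem212.

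**Figure D2:**
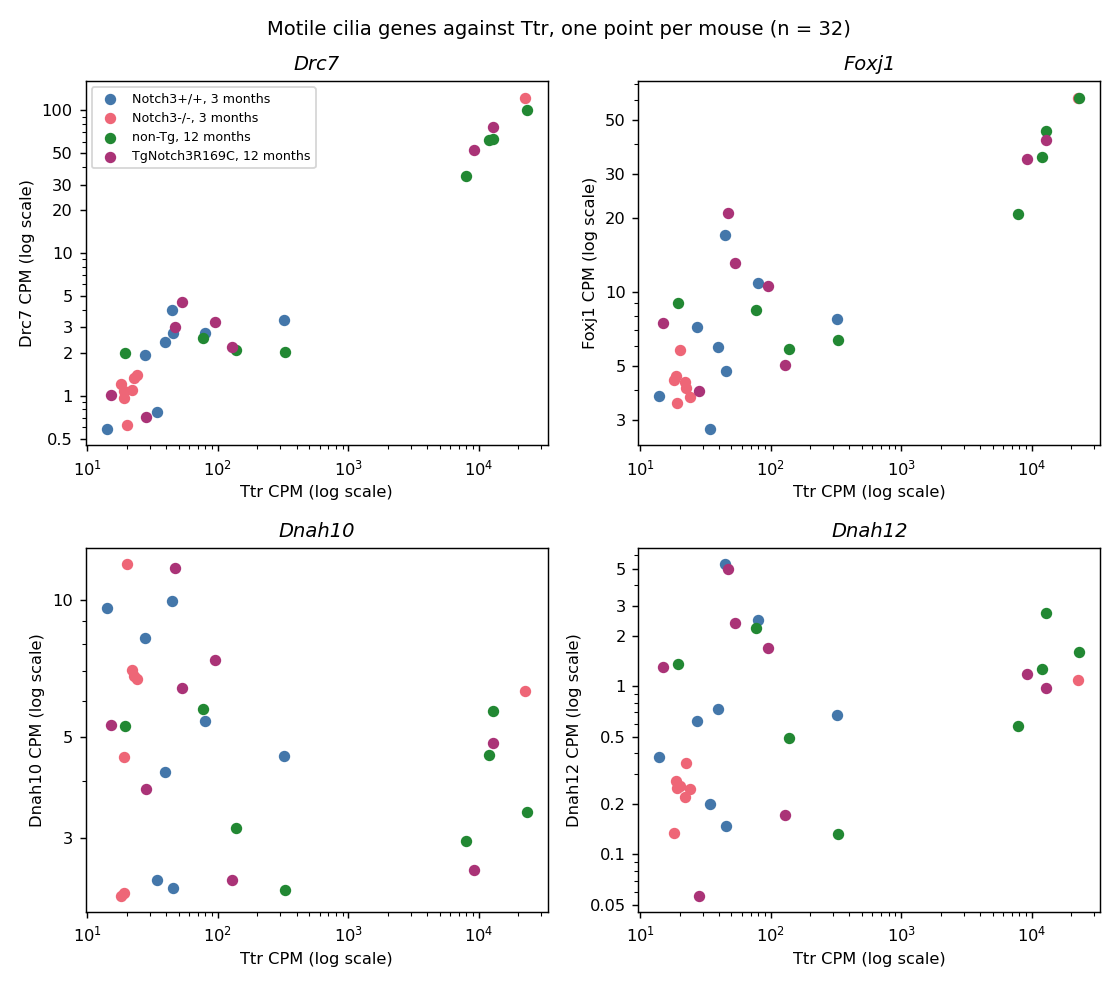
Level of Drc7, Foxj1, Dnah10 and Dnah12 (CPM, vertical axes) against Ttr (CPM, horizontal axes), both on log scales, with 1 point per mouse colored by group. Drc7 and Foxj1 are high in the 7 points on the right, whereas Dnah10 and Dnah12 reach their highest levels among the 25 points on the left.

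Below the gap in Ttr the members still varied, and together. Over the 25 libraries, with each group centered on its own mean, a member's median Pearson r with the other members was above 0.5 for 34 of 39, with 0.82 for Foxj1, 0.86 for Cfap46 and 0.39 for Cfap44 and Rfx3, the lowest. Over the same libraries the median r of members was 0.05 with Ttr, 0.77 with Ccdc153, a gene of ciliated ependymal cells that is not a member, and 0.41 with the mean log2 level of the neuron markers. These coefficients are a description over libraries that share their preparation. Ccdc153 was 0.0334 to 9.71 CPM (median 0.937) in the 25 libraries and 0.869 to 4.53 CPM (median 1.74) in the 7, so it did not separate the sets. It was highest in replicate 1 of the Notch3+/+ mice (9.71 CPM) and in replicate 4 of the TgNotch3R169C mice (7.81 CPM). Dnah12 was highest in the same 2 libraries, at 5.31 and 4.97 CPM, as was Tmem212, at 3.59 and 2.84 CPM.

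**Figure D3:**
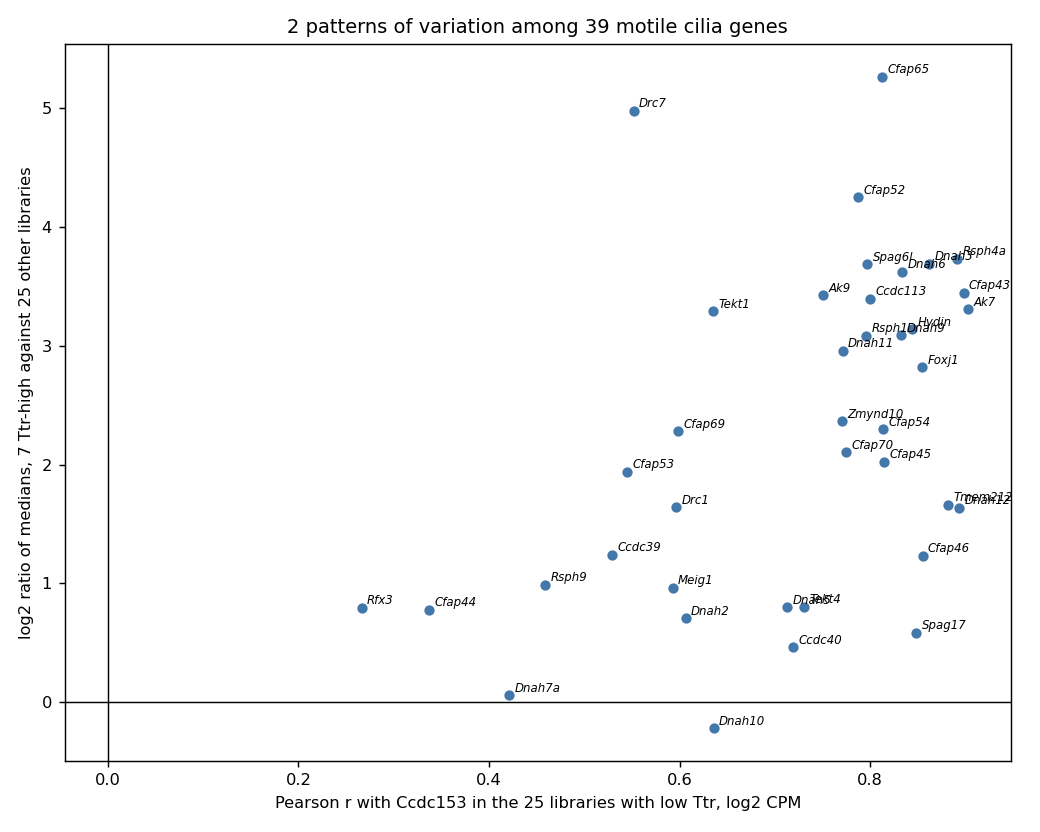
Each point is 1 of the 39 members, placed by its Pearson r with Ccdc153 over the 25 libraries with little Ttr (log2 CPM, centered within groups; horizontal axis) and by its log2 ratio of medians between the 7 Ttr-high and the other 25 libraries (vertical axis). Drc7 and Cfap65 lie highest, Spag17, Dnah12 and Tmem212 lie to the right at lower ratios, and Dnah7a and Dnah10 lie near 0 on the vertical axis.

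The relation to Ttr was tested mouse by mouse where a group held at least 6 libraries on one side of the gap. Those were the 8 Notch3+/+ mice, 7 Notch3-/- mice and 6 TgNotch3R169C mice. The non-Tg mice split 4 and 4 and could not be tested. Over 117 relations (39 members in 3 groups), 4 had an unadjusted p below 0.05 by exact two-sided permutation of the pairings, beside 5.13% of the relations of all genes tested. When p was adjusted over all genes, 0 passed. However, 6 to 8 mice limit how small an exact p can be. That adjustment could hardly call any relation, so nothing is concluded from the 0. For Drc7 in Notch3+/+ mice r was 0.65 (n = 8, exact p = 0.0788; Spearman rho 0.81, exact p = 0.0218), and r was 0.45 without the 2 mice farthest from the median of Ttr. For Foxj1 in the same mice r was 0.39 (exact p = 0.342; rho 0.57, exact p = 0.151) and 0.43 without those 2 mice. Ccdc39 had the smallest p in 2 groups, with opposite signs, at r = 0.78 in Notch3+/+ mice (exact p = 0.0144; rho 0.76, exact p = 0.0368) and r = -0.86 in Notch3-/- mice (exact p = 0.0111; rho -0.82, exact p = 0.0341), and at 0.68 and -0.90 without the 2 farthest mice. Ttr spanned only 18.2 to 23.9 CPM in those 7 Notch3-/- mice.

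With Ccdc153 in place of Ttr, a measure chosen after seeing the data and itself a gene of motile cilia, 0 relations passed when p was adjusted over all genes by the same exact permutation test, for members and for all other genes. As with Ttr, so few mice left that adjustment hardly able to call any relation, and nothing is concluded from the 0. An unadjusted p below 0.05 was found for 22 of 39 members in Notch3+/+ mice (beside 6.99% of all genes), for 33 of 39 in TgNotch3R169C mice (4.87%) and for 2 of 39 in Notch3-/- mice (3.75%), where Ccdc153 lay between 0.194 and 1.04 CPM. The members move together, so these are not independent relations. Foxj1 had r = 0.90 in the 8 Notch3+/+ mice (exact p = 0.00255; rho 0.88, exact p = 0.00724) and r = 0.94 in the 6 TgNotch3R169C mice (exact p = 0.00417; rho 0.94, exact p = 0.0167). Without the 2 mice farthest from the median of Ccdc153 these were 0.75 and 0.96. Tmem212 had r = 0.86 (exact p = 0.00057; rho 0.88, exact p = 0.00724) and r = 0.99 (exact p = 0.00139, the smallest that 6 mice allow; rho 1, exact p = 0.00278) in the same groups. Without the 2 farthest mice these were 0.90 and 0.93. Drc7 had r = 0.73 (exact p = 0.0333; rho 0.79, exact p = 0.0279) and r = 0.58 (exact p = 0.206; rho 0.66, exact p = 0.175). Without the 2 farthest mice these were 0.47 and 0.55.

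**Figure D4:**
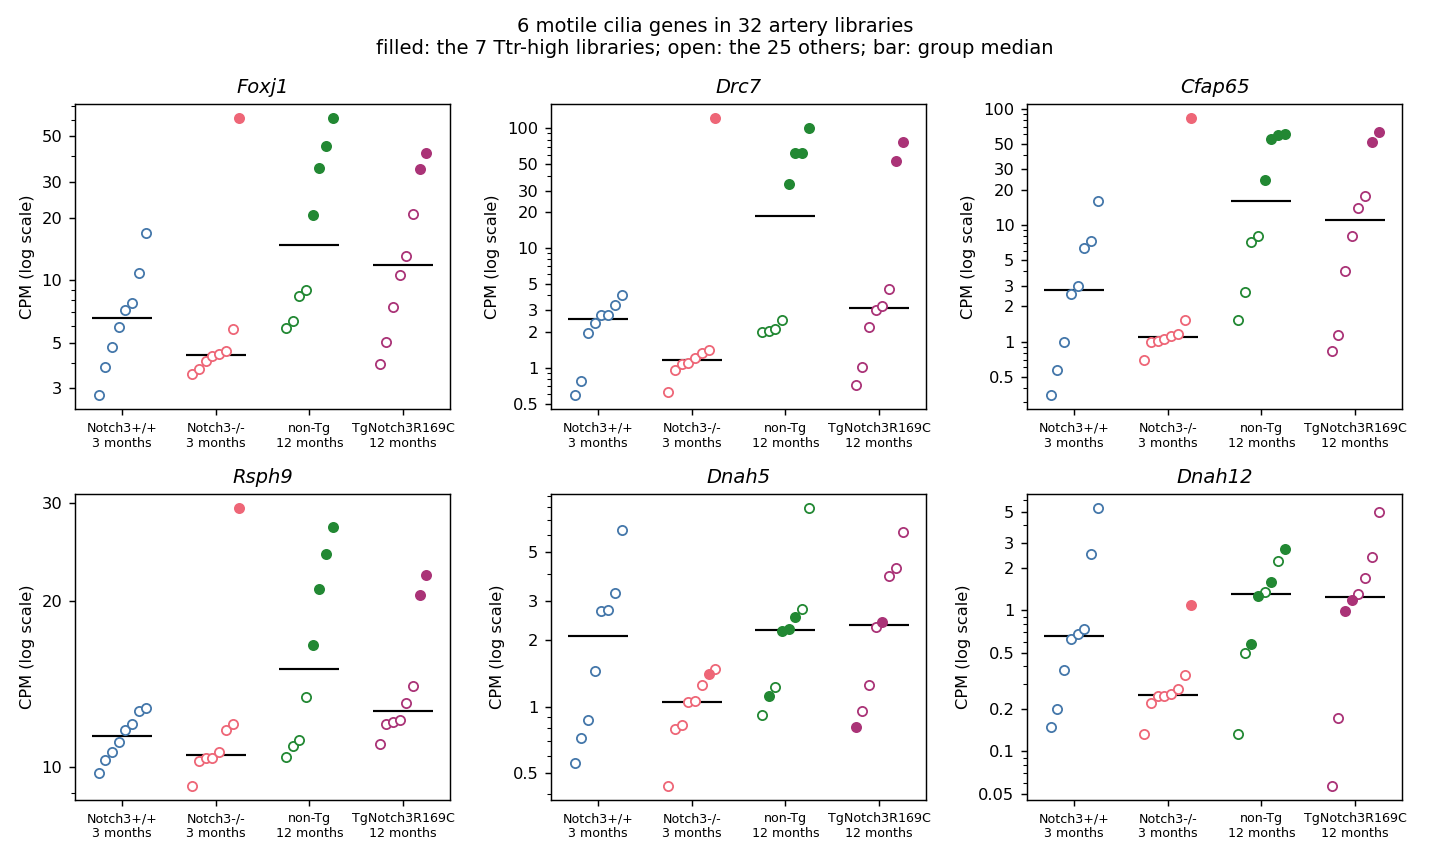
Level in CPM (log scale) of Foxj1, Drc7, Cfap65, Rsph9, Dnah5 and Dnah12 in the 4 groups, with 1 point per mouse, filled points for the 7 Ttr-high libraries and a bar at the group median (n = 8). Filled points lie at the top for Foxj1, Drc7, Cfap65 and Rsph9, and among the open points for Dnah5 and Dnah12.

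In controls, the difference between 12 and 3 months of age was large for Drc7 with all libraries and near 0 without the Ttr-high ones. Drc7 was 0.585 to 3.996 CPM (median 2.55) in Notch3+/+ mice aged 3 months and 1.98 to 100.4 CPM (median 18.4) in non-Tg mice aged 12 months, of which the 4 with little Ttr had 1.98 to 2.51 CPM. Foxj1 was 2.77 to 17.1 CPM (median 6.58) and 5.86 to 61.5 CPM (median 14.9), and the 4 non-Tg mice with little Ttr had 5.86 to 8.96 CPM. The log2 fold change of Drc7 was 3.84 with all 16 libraries and -0.12 without the 4 Ttr-high ones, and that of Foxj1 was 1.67 and -0.03. Members had a median log2 fold change of 0.96 with all libraries and of -0.12 without those 4, against 0.003 and -0.01 over all genes tested. By edgeR, 4 of 39 members passed an adjusted p of 0.05, beside 7.92% of all genes tested, and 0 of 39 without the 4 libraries (beside 2.22% of all genes). DESeq2 called 15 of 39, beside 10.6% of all genes. These calls describe the contrast that led to the list and support nothing.

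Between Notch3-/- and Notch3+/+ arteries at 3 months no member was called by edgeR's quasi-likelihood test, which does not show that their levels were equal. Of 39 members, 36 passed the filter on low counts, and 0 of these were called at an adjusted p of 0.05, beside 0.649% of 17714 genes. An unadjusted p below 0.05 was found for 3, which are not read as a result because the share of all genes is not given. Drc7 was 0.585 to 3.996 CPM (median 2.55) in Notch3+/+ and 0.624 to 122 CPM (median 1.15) in Notch3-/- mice. The 122 CPM belonged to replicate 8, and the next mouse had 1.39 CPM. Its log2 fold change of 2.78 (95% interval 0.38 to 5.18, adjusted p = 0.530) became -1.07 (-1.79 to -0.35, adjusted p = 0.267) without that library. Foxj1 was 2.77 to 17.1 CPM in Notch3+/+ and 3.54 to 61.1 CPM (median 4.35) in Notch3-/- mice, with a log2 fold change of 0.58 (-0.76 to 1.92, adjusted p = 0.934) and of -0.79 (-1.44 to -0.13, adjusted p = 0.458) without replicate 8. Dnah12 was 0.148 to 5.31 CPM (median 0.652) and 0.134 to 1.096 CPM (median 0.252), with a log2 fold change of -1.95 (-3.41 to -0.49, adjusted p = 0.401), or of -1.12 without replicate 1 of the Notch3+/+ mice. Dnah5 was 0.556 to 6.33 CPM (median 2.08) and 0.437 to 1.47 CPM (median 1.05), with a log2 fold change of -1.17 (-2.10 to -0.24, adjusted p = 0.461), or of -0.75 without that mouse. In each of these genes the ranges of the groups overlapped.

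Without replicate 8, the median log2 fold change of the members turned from 0.22 to -0.80, and 35 of 37 were below 0, against a median of -0.002 over all genes. Again 0 of 37 were called (beside 0.549% of all genes), and 23 had an unadjusted p below 0.05, as did 1524 of all 17849 genes. The members move together from library to library, so these counts are not independent. The 7 remaining Notch3-/- mice were close to each other, with Foxj1 at 3.54 to 5.79 CPM, Dnah12 at 0.134 to 0.349 CPM and Cfap65 at 0.691 to 1.53 CPM, whereas Cfap65 spanned 0.344 to 16.1 CPM in Notch3+/+ mice. DESeq2, which replaced the count of replicate 8 in 19 of the members by its default treatment of outlying counts, called 5 members lower (Dnah3, Dnah6, Hydin, Cfap52 and Ak7), beside 0.75% of genes called lower by it. Of the remaining motile cilia genes on a longer list, 65 passed the filter and 1 was called, the dynein chain Dnah8. It rose in Notch3-/- arteries, from 4.40 to 12.9 CPM (median 6.36) in Notch3+/+ to 12.3 to 20.4 CPM (median 16.5), a log2 difference of 1.25 (SE 0.18, edgeR adjusted p = 0.00111), or of 1.21 without replicate 8. Next by p came Gmnc (3.45, and 0.42 without replicate 8), Ccdc153 (-1.81) and Myb (-0.94), with adjusted p from 0.357 to 0.530. Dnah8 lies on chromosome 17, as do Notch3 and the members Rsph1, Rsph9 and Tekt4, none of which was called.

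Between TgNotch3R169C and non-Tg arteries at 12 months no member was called either, which does not show that their levels were equal. All 39 passed the filter, 0 were called by edgeR, beside 0.113% of 17731 genes, and none had an unadjusted p below 0.05. DESeq2 called 0 as well, beside 0.33% of the genes it tested. Drc7 was 1.98 to 100.4 CPM (median 18.4) in non-Tg and 0.712 to 76.2 CPM (median 3.15) in TgNotch3R169C mice, and its log2 fold change was -0.94 (95% interval -3.20 to 1.32, adjusted p = 0.855). Foxj1 was 5.86 to 61.5 CPM (median 14.9) and 3.93 to 41.4 CPM (median 11.8), with a log2 fold change of -0.51 (-1.73 to 0.72, adjusted p = 0.855). The 3 members with the smallest p were Dnah7a (0.40, -0.07 to 0.86), Cfap44 (-0.38, -0.89 to 0.12) and Dnah10 (0.43, -0.20 to 1.07), with adjusted p from 0.721 to 0.765. Cfap44 stood at -0.22 without replicate 4 of the non-Tg mice and Dnah10 at 0.18 without replicate 4 of the TgNotch3R169C mice. The non-Tg group held 4 Ttr-high libraries and the TgNotch3R169C group 2. Without these 6, the median log2 fold change of the members went from -0.29 to 0.38, Drc7 stood at 0.19 (-0.78 to 1.17) and Foxj1 at 0.46 (-0.45 to 1.37), and 0 of 39 were called (beside 0.0111% of all genes). Of 72 other motile cilia genes 0 were called, with the smallest p for Ccdc103 (-0.60), Tppp3 (-0.24), Dnah1 (0.47) and Dnaaf2 (-0.29).

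**Figure D5:**
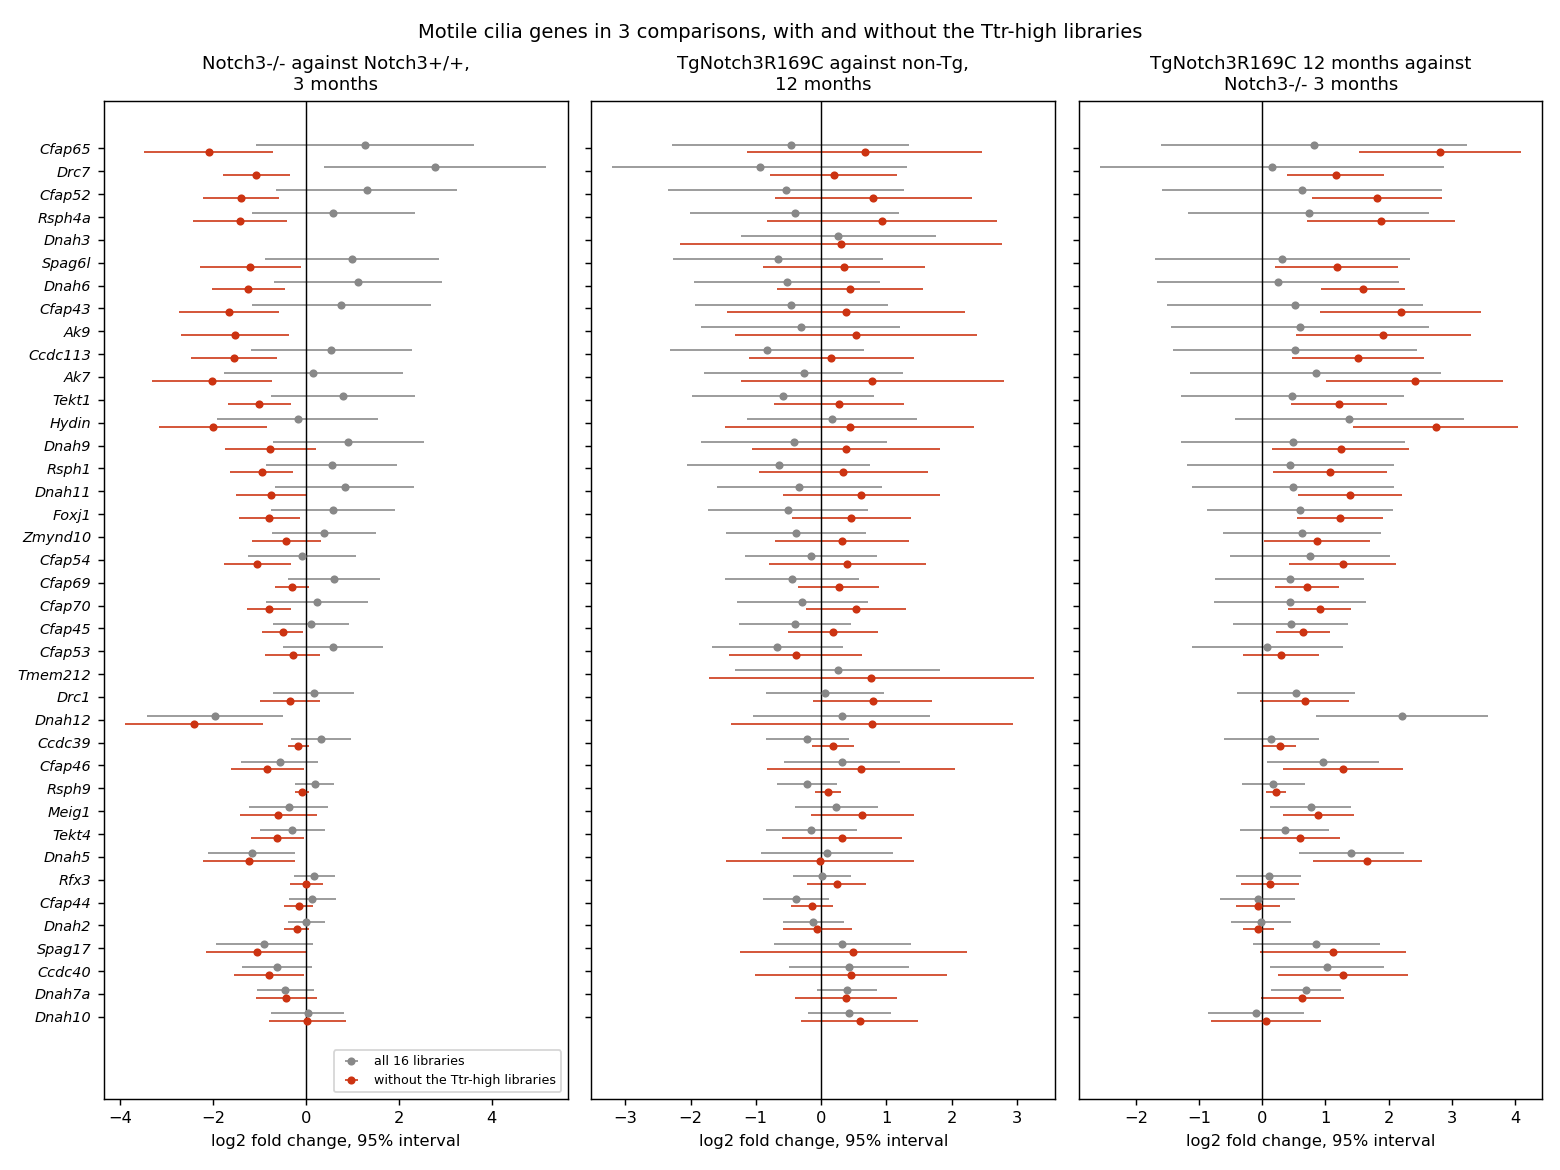
Log2 fold change of each member with its 95% interval in 3 comparisons, from all 16 libraries (gray) and without the Ttr-high ones (red). Members with too few counts to be tested have no point. The red points lie left of 0 in the first panel for all but 2 members and right of 0 in the third for all but 2, and the gray intervals are wider for the members at the top.

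The 2 mutants share no mice, so they were also compared with each other, where age, line and mutation cannot be told apart. Of 37 members tested, 0 were called in TgNotch3R169C at 12 months against Notch3-/- at 3 months, beside 3.82% of 17865 genes. An unadjusted p below 0.05 was found for 6, which are not read as a result because the share of all genes at that level is not given. Dnah5 was 0.437 to 1.47 CPM (median 1.05) in Notch3-/- and 0.807 to 6.19 CPM (median 2.35) in TgNotch3R169C mice, with a log2 fold change of 1.41 (95% interval 0.58 to 2.24, adjusted p = 0.0549). Dnah12 was 0.134 to 1.096 CPM (median 0.252) and 0.057 to 4.97 CPM (median 1.24), with a log2 fold change of 2.21 (0.86 to 3.57, adjusted p = 0.0647). Dnah7a was 0.214 to 0.738 CPM (median 0.510) and 0.342 to 1.13 CPM (median 0.830), with a log2 fold change of 0.70 (0.15 to 1.25, adjusted p = 0.145). The groups overlapped in all 3 genes. Foxj1 had a log2 fold change of 0.59 (-0.88 to 2.06, adjusted p = 0.698) and Drc7 one of 0.15 (-2.57 to 2.87, adjusted p = 0.967). Without replicate 8 of the Notch3-/- mice alone, 23 of 37 members were called higher, beside 4.25% of genes called higher in that fit. The 2 Ttr-high libraries of the TgNotch3R169C mice were part of that fit. DESeq2 with all libraries called 9 members higher, among them Dnah3 (3.99), Dnah5 (1.40), Dnah12 (2.18) and Drc7 (0.96), beside 5.2% of genes called higher by it, after it replaced counts in 5 members, among them those of Drc7 in all 3 Ttr-high libraries.

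Without all 3 Ttr-high libraries, 7 of 36 members were called, all higher in TgNotch3R169C mice, beside 3.02% of genes called higher. They were Foxj1 (1.23, SE 0.32, adjusted p = 0.0446), the dynein chains Dnah5 (1.66, SE 0.40) and Dnah6 (1.59, SE 0.31), the central pair genes Hydin (2.74, SE 0.61), Cfap65 (2.82, SE 0.60) and Cfap70 (0.91, SE 0.23), and Cfap52 (1.81, SE 0.48), as log2 fold changes, and all were named after their values were seen. With all libraries none of the 7 was called, and the log2 fold changes were 0.25 for Dnah6, 1.38 for Hydin, 0.82 for Cfap65, 0.44 for Cfap70 and 0.63 for Cfap52. In these 6 TgNotch3R169C mice Foxj1 was 3.93 to 21.0 CPM (median 9.01), against 3.54 to 5.79 CPM (median 4.31) in the 7 Notch3-/- mice. Hydin was 0.308 to 8.25 CPM (median 2.66), against 0.281 to 0.851 CPM (median 0.413). Replicates 1 and 3 of the TgNotch3R169C mice lay within the range of the Notch3-/- mice for Foxj1 and Hydin, and the higher levels were in replicates 2, 4, 6 and 7. Over all libraries, the Ttr-high ones included, neuron markers were also higher in the TgNotch3R169C group. Their summed levels were 739 to 2030 CPM (median 1323) against 493 to 1096 CPM (median 845) in Notch3-/- mice. The 2030 CPM belonged to a Ttr-high library. With the mean log2 level of the neuron markers as a covariate and all libraries kept, the median log2 fold change of the members was 0.19 rather than 0.52. The part of neuron markers in the result without the Ttr-high libraries was not tested. Of 67 measured other motile cilia genes, 1 was called with all libraries, Dnah8, which was lower in TgNotch3R169C mice (log2 fold change -1.48). Spag6 (0.85), Ccdc153 (1.76) and Dnah1 (0.70) followed by p and were not called.

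The difference between the effects of the 2 mutations, each against its own controls, was tested as an interaction. Of 39 members, 0 were called by edgeR, beside 0.35% of 18555 genes, and 5 had an unadjusted p below 0.05. Drc7 differed by -3.70 on the log2 scale (95% interval -7.01 to -0.38, adjusted p = 0.528), which became 1.27 (0.07 to 2.46, adjusted p = 0.515) without the 7 Ttr-high libraries. The interaction holds the contrast of the controls by age, with its sign reversed, and that contrast put Drc7 on the list. For Drc7 the interaction is therefore a description and supports nothing. Each mutant's comparison with its own controls shares a control group with that contrast, so Drc7 is only described there too. Dnah3, an inner arm chain, differed by 3.24 (0.80 to 5.67, adjusted p = 0.394), or by 2.25 without replicate 1 of the Notch3+/+ mice. Dnah12 differed by 2.25 (0.26 to 4.24, adjusted p = 0.523), or by 1.44 without that mouse. Both kept a positive difference without the 7 Ttr-high libraries (3.75 and 3.19). The median over members was -0.52 with all libraries and 1.28 without the 7, and 0 were called in either fit. Without the 7, 18 had an unadjusted p below 0.05. The share of all genes at that level is not given for either fit, so neither the 5 nor the 18 is read as a result. DESeq2 called 0 with all libraries. All genes gave 0.205% calls by edgeR without the 7 and 0.677% by DESeq2. Of 74 other motile cilia genes, 1 was called, Dnah8 (-1.28, adjusted p = 0.0024), and Gmnc (-4.72), Dnah1 (0.86) and Ccdc153 (2.12) followed.

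The genes whose levels were most like the mean of the members across the 32 libraries, centered within groups, were Cfap91 (r = 0.98), Ttc21a (0.98), Dnali1 (0.97), Ccdc146 (0.97), Daw1 (0.97), Mak (0.97), Spata18 (0.96), 2410004P03Rik (0.96), Spag16 (0.96) and Eno4 (0.96). Of these 10, Cfap91, Dnali1, Ccdc146 and Spag16 were on the list of other motile cilia genes, and none was a choroid plexus marker. Over the 25 libraries with little Ttr the first was Ttc29 (0.97), followed by Cfap91 (0.96), Cdhr3 (0.94) and Tcte1 (0.94).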

How the data were processed

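RNA of 32 brain artery samples was sequenced as stranded poly(A) libraries, per the labels. The table deposited by the authors holds raw counts of reads for each Ensembl identifier, not normalized. The submitters' processing notes name cutadapt 1.10, Bowtie2 2.2.8, STAR 2.5.3a, HTSeq 0.6.1p1 and build mm39. Whether counting used strand was not given in the sources used here.

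Symbols were matched by gene identifier for 52081 of 55357 genes. Exon lengths came from a GRCm38 annotation, and promoters from RefSeq. Genes with low counts were removed by filterByExpr, libraries were scaled by TMM, and pairs of groups were compared by edgeR 4.0.16 (quasi-likelihood test, Benjamini-Hochberg over all genes tested, threshold 0.05). The interaction was fitted over all 32 libraries. Log2 CPM used a prior count of 2. Relations to Ttr were tested by exact permutation, with p adjusted over all genes. DESeq2 1.42.0, limma 3.58.1, other scalings, filters and covariates, a replicate block and leaving out each library served as alternatives, and leaving out the 7 Ttr-high libraries and the use of Ccdc153 were chosen after seeing the data. The fits were tested on simulated data.

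The members and gene lists were chosen with earlier results of these data known. Named are Foxj1, Drc7, the members with the smallest p in each comparison (at least 3) and the highest and lowest levels per length. Dnah6, Hydin, Cfap65, Cfap70, Cfap52 and the members named by their split by Ttr were chosen after their values were seen. Nothing says which mice shared a litter or day, and the main fits did not pair samples by replicate number. Of the 8 Notch3-/- libraries, 4 correlated best with the same-numbered Notch3+/+ library. In the other comparisons of 2 groups, 1 to 3 of 8 libraries did so. Whether replicate number marks a shared batch was not tested.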

Additional observations from a re-analysis of the deposited data

Results flagged for a closer look

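Within groups of 8 mice, 48 sets of values (12 genes in 4 groups) were searched for 1 mouse far from the others by Dixon's criterion. For independent, normally distributed values, chance alone meets it in about 1 in 20 sets. It was met in 15, each time by a high value. The CPM were not put on a log scale, and the genes move together and were partly named after their values were seen. The rate of 1 in 20 therefore does not hold here, and the 15 are a description. Replicate 8 of the Notch3-/- mice stood apart in Ttr (22700 CPM, next mouse 23.9 CPM), Drc7 (122 CPM, next 1.39 CPM), Foxj1 (61.1 CPM, next 5.79 CPM), Cfap44 (81.2 CPM, next 33.4 CPM), Rsph9 (29.4 CPM, next 12.0 CPM), Dnah12 (1.1 CPM, next 0.349 CPM) and Dnah3 (0.430 CPM, next 0.156 CPM). Replicate 1 of the Notch3+/+ mice, with a Ttr of 44.8 CPM, stood apart in Ccdc153 (9.71 CPM, next 4.38 CPM), Dnah12 (5.31 CPM, next 2.48 CPM), Dnah5 (6.33 CPM, next 3.27 CPM), Dnah3 (4.55 CPM, next 1.94 CPM) and Spag17 (2.54 CPM, next 1.16 CPM). Ttr was highest in another Notch3+/+ mouse, replicate 5 (321 CPM, next 79.5 CPM). Dnah12 stood apart in replicate 4 of the TgNotch3R169C mice (4.97 CPM, next 2.38 CPM), and Dnah5 in replicate 8 of the non-Tg mice (7.95 CPM, next 2.76 CPM).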

How the results depend on the processing

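No member was called in Notch3-/- against Notch3+/+, in TgNotch3R169C against non-Tg or in the interaction under any alternative but 1, DESeq2 in the first (5 members). Between the mutants, 1 member was called without a filter and 1 in a fit of all 4 groups, Dnah3 in both. DESeq2 called 9, beside 5.2% of genes called higher, and 7 were called without the Ttr-high libraries, beside 3.02%. With 1 library left out the count ran from 0 to 23. It was 23 without replicate 8 of the Notch3-/- mice, beside 4.25% of genes called higher, and 4 without replicate 1 or 3 of the TgNotch3R169C mice. It was 1 without any other Notch3-/- library (Dnah3 each time) or replicate 8 of the TgNotch3R169C mice (Dnah5). Dnah3 had not passed the filter with all libraries, so it could not be called there. It had 1 to 11 reads in the Notch3-/- libraries and 2 to 164 in the TgNotch3R169C libraries. With 1 library left out it therefore passed the filter mainly through the group where it was high, and its calls in those fits support nothing. Counts given without a share of all genes are not read as results. In controls, whose contrast led to the list so that the counts support nothing, 2 members were called without a filter, 15 by DESeq2, 0 by limma voom, with the replicate block, with Ttr as a covariate, in a fit of all 4 groups or without the Ttr-high libraries, and 1 to 13 when 1 library was left out (1 without replicate 2, 4, 6, 7 or 8 of the Notch3+/+ mice or 4, 5 or 6 of the non-Tg mice, 2 without non-Tg replicate 2, 8 without 7, 12 without replicate 1 of either group and 13 without non-Tg replicate 3). The same fits called 1158 of all genes without a filter, 2350 by DESeq2 and 1364 without non-Tg replicate 3. Relations with Ccdc153 in place of Ttr numbered 48 of 117 when p was adjusted over the members' relations and 0 when adjusted over all genes. The latter adjustment could hardly call any relation with so few mice. In Notch3-/- mice the log2 fold change of Foxj1 turned from 0.58 to -0.75 by DESeq2, -0.20 by limma voom, -0.19 with the replicate block, -0.31 with Ttr as a covariate and -0.79 without the Ttr-high library, and that of Drc7 from 2.78 to -0.99, -0.20, -0.38, -0.19 and -1.07. In TgNotch3R169C mice Foxj1 turned from -0.51 to 0.34 with Ttr as a covariate and 0.46 without the Ttr-high libraries, and Drc7 from -0.94 to 0.39 and 0.19. Under the same alternatives the interaction turned from -1.08 to 0.73 and 1.25 for Foxj1 and from -3.70 to 0.60 and 1.27 for Drc7. Between the mutants Drc7 turned from 0.15 to -0.17 with neuron markers as a covariate. With 1 library left out, Drc7 ranged from -1.07 to 2.99 in Notch3-/- mice, from -0.75 to 3.99 between the mutants and from -4.59 to 0.15 in the interaction, and Foxj1 from -0.79 to 0.90 in Notch3-/- mice and from -1.41 to 0.29 in the interaction. The replicate block gave 0 calls in each comparison, and same-numbered samples correlated from -0.243 to 0.464. The cause of these changes was not tested. Members with few reads, such as Dnah3, Dnah12, Spag17 and Tmem212, are limited by counting error.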

Other observations

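Gmnc, a regulator of multiciliated cells upstream of Foxj1 that is not among the 39 genes, was 13.3 to 47.1 CPM in the 7 Ttr-high libraries and 0.0635 to 2.25 CPM in the other 25, a ratio of medians of 54.1. Rfx2 was 13.5 to 20.04 CPM and 8.38 to 12.7 CPM. The 3 non-ciliary ependymal markers summed to 43.5 to 64.0 CPM in the 7 libraries and 41.0 to 72.4 CPM in the 25.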
